A study of Mus musculus with 12 samples.

Results

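The Toll-like receptors Tlr1 to Tlr9 and the adaptor gene Myd88 were taken by gene symbol from a table of 54532 mouse genes, and all 10 were found, each in 1 row. They were measured by RNA sequencing in 12 libraries from male mice, 3 libraries for each of 4 groups: null liver, hHKDC1 OE liver, null fat and hHKDC1 OE fat, where fat is subcutaneous fat. The hHKDC1 OE mice received an adeno-associated virus of serotype AAV-8 that carried full-length human HKDC1, a hexokinase domain containing gene, under a hepatocyte promoter, that of thyroxine-binding globulin. The null mice received the vector with the promoter alone. Both vectors were given once into the tail vein at 10 weeks of age, and all mice then ate a low-fat diet for 16 weeks, so the diet and the virus were shared by every group. The mice came from The Jackson Laboratory, and a strain is not given in the sources used here. In each tissue the description field names 2 of the 3 hHKDC1 OE libraries as knockouts. Their titles hold the letters FL, read here as the vector with full-length HKDC1, and the groups follow the titles. Human HKDC1 was not analysed here, so the vector itself was not checked, and mouse Hkdc1 had 0 to 8 counts per library. The tissue labels were checked by markers, with CPM (counts scaled to the library total with TMM normalisation) set within each tissue: 6 adipocyte markers summed to 13710 to 22768 CPM in fat and 7.56 to 27.2 CPM in liver, and 10 hepatocyte markers to 71281 to 116214 CPM in liver and 765 to 7705 CPM in fat.

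Toll-like receptors are membrane proteins that recognise molecules typical of microbes. Tlr1, Tlr2, Tlr4, Tlr5 and Tlr6 act mainly at the cell surface and bind lipoproteins, lipopolysaccharide or flagellin, whereas Tlr3, Tlr7, Tlr8 and Tlr9 act in endosomes and bind nucleic acids. Most of them recruit Myd88, which assembles a complex of Irak kinases and Traf6 that leads to NF-kB, while Tlr3 signals through the adaptor Ticam1 and Tlr4 uses both adaptors. In liver and adipose tissue these receptors are carried by immune cells in particular, and also by endothelial cells, and some of them by the parenchymal cells.

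The 10 genes lie at positions of the mouse build GRCm38 that are identical in GENCODE release vM21 for 10 of 10. Tlr1 (ENSMUSG00000044827) and Tlr6 (ENSMUSG00000051498), close relatives that each pair with Tlr2, lie near each other on the minus strand of chromosome 5, from 64924679 to 64933563 and from 64952031 to 64960097. Tlr7 (ENSMUSG00000044583) and Tlr8 (ENSMUSG00000040522), the receptors for single-stranded RNA, are neighbours on the minus strand of chromosome X, from 167304929 to 167330558 and from 167242696 to 167264329. Tlr9 (ENSMUSG00000045322), the receptor for unmethylated CpG DNA, and Myd88 (ENSMUSG00000032508) are both on chromosome 9, from 106222598 to 106226883 and from 119335934 to 119341411. Tlr2 (ENSMUSG00000027995) is on chromosome 3 from 83836272 to 83841767, Tlr3 (ENSMUSG00000031639) on chromosome 8 from 45395665 to 45411080, Tlr4 (ENSMUSG00000039005) on chromosome 4 from 66827584 to 66930284 and Tlr5 (ENSMUSG00000079164) on chromosome 1 from 182954788 to 182976044. The gene model of Myd88 shares 1736 bases with Acaa1a, a peroxisomal thiolase gene on the opposite strand that had 2515 to 3832 counts in fat and 3153 to 5359 in liver. The libraries keep no strand, so reads from the shared stretch cannot be told apart, and values of Myd88 carry that uncertainty. Myd88 also lies within the long gene model of Slc22a14, which had at most 12 counts in any library, and Tlr3 overlaps Gm45542, which had 0 counts in all 12.

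RefSeq promoter sequence (build GRCm38.p6) was given for 8 of the 10 genes, all but Tlr4 and Tlr7. The 250 bases before the start were searched on both strands for ATGCAAAT (the octamer bound by Oct factors), GAGGAA (a core of PU.1 sites), GGGNNTTCC (a loose form of the NF-kB site) and GAAANNGAA (a loose core of the interferon response element), forms that were chosen with these sequences known. Tlr1 and Tlr9 are shown because their levels in fat differed the most between the vectors, and Tlr2 and Myd88 because they are the receptor and the adaptor that Tlr1 works with. Capitals mark the matches. The Tlr1 window is chr5:64933559-64933808 on the minus strand, that of Tlr9 chr9:106222348-106222597 on the plus strand, that of Tlr2 chr3:83841609-83841858 on the minus strand and that of Myd88 chr9:119340019-119340268 on the minus strand. Tlr1 has another window, at chr5:64932700-64932949, which holds none of the 4 motifs and is not shown. The starts are those of RefSeq, and the Myd88 window lies inside the gene model given above, in the stretch shared with Acaa1a. The windows of Tlr1 and Tlr2 also reach into their gene models. For both Tlr1 windows, the sequence just after the start was not found in a GENCODE transcript.
Tlr1: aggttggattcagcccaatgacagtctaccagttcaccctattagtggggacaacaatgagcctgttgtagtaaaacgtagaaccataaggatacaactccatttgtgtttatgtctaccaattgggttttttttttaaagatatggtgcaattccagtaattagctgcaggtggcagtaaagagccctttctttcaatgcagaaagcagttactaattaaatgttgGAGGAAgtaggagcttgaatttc
Tlr9: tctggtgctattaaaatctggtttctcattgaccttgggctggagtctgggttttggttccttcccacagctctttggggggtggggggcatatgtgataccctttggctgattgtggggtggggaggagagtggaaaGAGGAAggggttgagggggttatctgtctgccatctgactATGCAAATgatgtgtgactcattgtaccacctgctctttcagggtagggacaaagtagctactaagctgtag
Tlr2: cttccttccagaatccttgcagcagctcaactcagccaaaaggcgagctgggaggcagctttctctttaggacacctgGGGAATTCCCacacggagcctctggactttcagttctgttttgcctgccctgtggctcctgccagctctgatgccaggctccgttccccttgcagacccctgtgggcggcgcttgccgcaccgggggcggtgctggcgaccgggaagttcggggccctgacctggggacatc
Myd88: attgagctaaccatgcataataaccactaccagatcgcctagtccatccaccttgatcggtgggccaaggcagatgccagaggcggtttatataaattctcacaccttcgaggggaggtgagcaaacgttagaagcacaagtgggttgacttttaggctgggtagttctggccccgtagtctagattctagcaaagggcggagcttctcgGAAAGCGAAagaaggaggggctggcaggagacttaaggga

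The octamer stood in the Tlr9 window alone among the 8 genes, 72 bases before the start, and 1.60% of all 32851 promoter windows hold it. GAGGAA was present in 1 of the 2 Tlr1 windows and in Tlr8 and Tlr9, against 23.3% of all windows. The NF-kB form stood in Tlr2 alone among the 8 genes, as 2 overlapping matches that read the same stretch on both strands, and 4.98% of all windows hold it. GAAANNGAA, found in Myd88, Tlr8 and 1 of the 2 Tlr6 windows, was in 7.13% of them. These matches describe letters only, and what binds there was not measured.

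Subcutaneous fat was compared between hHKDC1 OE and null mice to ask whether the receptors and their adaptor differ in a tissue that the vector does not target. The receptor levels of highest contrast were those of Tlr1 and Tlr9, with fitted fold changes of 15.3 and 5.31 over null fat, followed by Tlr6 at 2.29-fold, Tlr2 at 2.22-fold, Tlr7 at 1.77-fold and Myd88 at 1.57-fold. None of these passed the test across genes. Levels within a tissue are CPM, where 1 CPM was worth 16.2 to 21.2 counts in fat. In whole tissue, more cells of a type and more RNA per cell cannot be told apart.

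Tlr1, the partner of Tlr2 for triacylated lipoproteins, had 1.58, 0.992 and 1.34 CPM in null fat replicates 1, 2 and 3, and 27.1, 2.74 and 30.6 CPM in hHKDC1 OE fat. All 3 hHKDC1 OE libraries were above all 3 null libraries, but replicate 2 lay far nearer to null fat than the other two did. The counts behind these values were 16 to 26 in null fat, against 572, 56 and 497 with the hHKDC1 vector. The log2 fold change was 3.94 (SE 0.86, n = 3 per group), and the quasi-likelihood test of edgeR, adjusted after Benjamini and Hochberg over all genes tested, gave an adjusted p of 0.133.

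Tlr9 also had its lowest hHKDC1 OE value in replicate 2. It had 1.70, 0.930 and 1.87 CPM in null fat and 9.57, 2.64 and 11.9 CPM in hHKDC1 OE fat, and the groups did not overlap. Its log2 fold change was 2.41 (SE 0.61), with an adjusted p of 0.137 by the same edgeR test.

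Tlr2, the shared partner of Tlr1 and Tlr6, had 5.05, 2.79 and 3.10 CPM in null fat and 10.2, 4.40 and 9.65 CPM in hHKDC1 OE fat. Replicate 2 of hHKDC1 OE fat fell within the null range, so the groups overlapped (log2 fold change 1.15, SE 0.43, edgeR adjusted p = 0.237). Tlr6, the partner of Tlr2 for diacylated lipoproteins, had 0.973, 1.43 and 1.44 CPM in null fat and 2.56, 1.76 and 4.55 CPM in hHKDC1 OE fat. These groups did not overlap, at 16 to 27 counts in null fat and 36 to 74 in hHKDC1 OE fat (log2 fold change 1.20, SE 0.47, edgeR adjusted p = 0.257).

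Myd88, through which all of these receptors signal, was measured at 17.9, 14.4 and 17.7 CPM in null fat and at 28.4, 19.0 and 31.1 CPM in hHKDC1 OE fat. The lowest hHKDC1 OE library was again replicate 2, and it stood just above the highest null library (log2 fold change 0.65, SE 0.23, edgeR adjusted p = 0.226).

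For the other 5 receptors the groups overlapped or the hHKDC1 OE libraries were lower. Tlr7 had 6.26, 2.67 and 6.10 CPM in null fat and 7.39, 6.06 and 13.2 CPM in hHKDC1 OE fat, with overlapping groups and replicate 2 the lowest of each (log2 fold change 0.82, SE 0.45, edgeR adjusted p = 0.373). Tlr3, the receptor for double-stranded RNA, had 22.1, 19.4 and 18.2 CPM in null fat and 13.9, 16.4 and 17.5 CPM in hHKDC1 OE fat. With TMM it was the one member whose hHKDC1 OE libraries were all below the null ones (log2 fold change -0.32, SE 0.18, edgeR adjusted p = 0.385). With library size alone its groups overlapped and the log2 fold change was -0.17. Tlr4, the receptor for lipopolysaccharide, had 24.6, 22.8 and 21.1 CPM in null fat and 14.6, 22.7 and 19.7 CPM in hHKDC1 OE fat, with overlap (log2 fold change -0.26, SE 0.21, edgeR adjusted p = 0.517). For the flagellin receptor Tlr5 and for Tlr8 the groups overlapped as well. Tlr5 ranged from 7.44 to 11.98 CPM in null fat and from 5.21 to 9.53 CPM in hHKDC1 OE fat (log2 fold change -0.42, SE 0.32), and Tlr8 from 1.92 to 5.41 CPM and from 1.47 to 5.47 CPM (log2 fold change -0.11, SE 0.58).

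**Figure D1:**
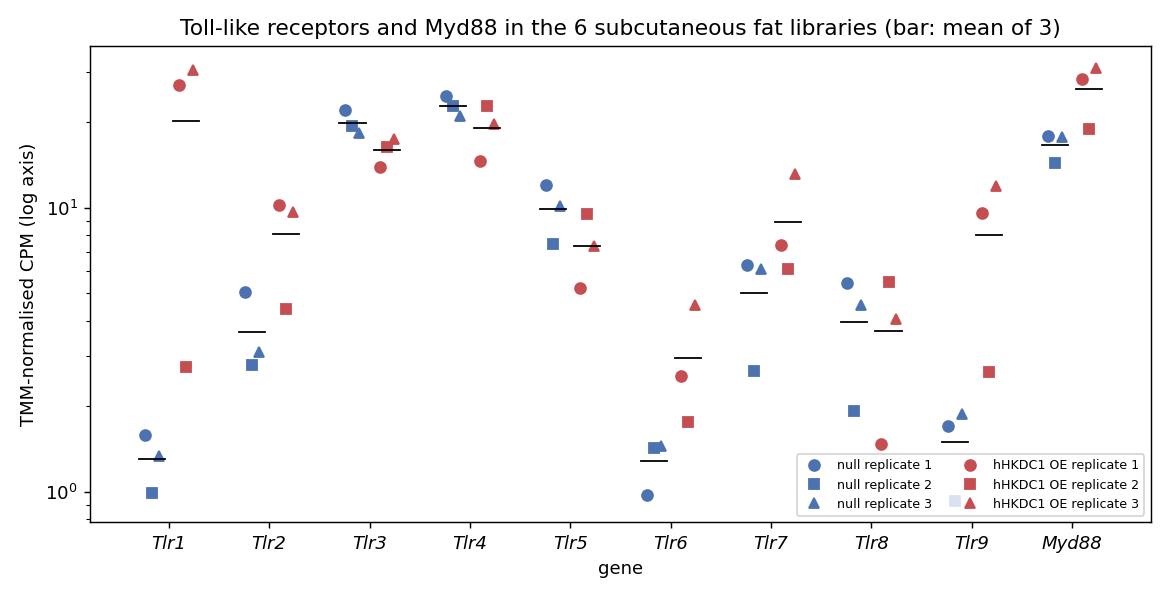
CPM of the 10 genes in the fat libraries on a log axis, with null fat in blue, hHKDC1 OE fat in red, a symbol for each replicate and a bar at each group's mean of 3. Tlr1, Tlr6, Tlr9 and Myd88 have all red symbols above all blue ones, and for Tlr1 and Tlr9 the red square, hHKDC1 OE replicate 2, lies near the blue symbols at 2.74 and 2.64 CPM.

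Across the 10 genes, 0 were called at an adjusted p under 0.05 by edgeR, and 0% of the 16380 genes tested in fat were called. At an unadjusted p under 0.05, 5 of 10 were higher (Tlr1, Tlr2, Tlr6, Tlr9 and Myd88), against 11.3% of all genes tested, and 0 were lower, against 6.39%. The groups did not overlap for 4 genes that were higher, against 12.5% of all genes, and for 1 that was lower, against 10.2%. The median log2 fold change was 0.74 over the 10 genes and -0.05 over all genes. DESeq2 called 2 of the 10 genes higher, Tlr1 (adjusted p = 1.53e-06) and Tlr9 (adjusted p = 0.00133), against 6.51% of all genes with an adjusted p, while limma on log2(FPKM + 1) called 0 of them.

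These calls changed when 1 library was left out. Without hHKDC1 OE fat replicate 2, edgeR called 4 of the 10 genes higher: Tlr1 (log2 fold change 4.45, adjusted p = 0.00048), Tlr9 (2.81, adjusted p = 0.00439), Myd88 (0.83, adjusted p = 0.0226) and Tlr2 (1.44, adjusted p = 0.0307). It then called 11.4% of all 17190 genes higher and 7.53% lower. With replicate 2 as the only hHKDC1 OE library, a setting chosen after the values were seen in which that library is assumed to vary like null fat, the log2 fold changes were 1.06 for Tlr1, 0.81 for Tlr9 and 0.19 for Myd88, and 0 genes were called, with the smallest unadjusted p of the 3 at 0.113 by edgeR for Tlr1.

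Markers of lymphocytes also had their lowest hHKDC1 OE sums in replicate 2. The 11 B cell markers summed to 2.80, 2.48 and 4.33 CPM in null fat and to 1076, 60.8 and 798 CPM in hHKDC1 OE fat. Of these 11 of 11 were higher with no overlap, against 12.5% of all genes. In null fat 9 of the 11 had counts in each library. The 9 T cell markers summed to 6.99, 6.45 and 18.0 CPM in null fat and to 556, 41.2 and 595 CPM in hHKDC1 OE fat. Lymph node stroma and venule markers, of which 3 were used, summed to 1.43 to 4.20 CPM in null fat and to 83.7, 10.2 and 84.8 CPM in hHKDC1 OE fat.

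Myeloid lists varied in how far they differed. The 5 Kupffer cell markers, genes of resident macrophages, summed to 9.30, 5.02 and 14.2 CPM in null fat, against 354, 27.4 and 235 CPM with the hHKDC1 vector, again lowest in replicate 2. Timd4, Cd5l and Marco made up that difference with no overlap, while Clec4f, from 0.558 to 4.87 CPM in null fat and from 1.12 to 3.20 CPM in hHKDC1 OE fat, and Vsig4 overlapped. The 7 macrophage markers summed to 541, 288 and 575 CPM in null fat and to 882, 751 and 1158 CPM in hHKDC1 OE fat, with 4 of 7 higher by their means, and 7 of 7 dendritic cell markers were higher, with sums of 32.3 to 39.8 and 48.9 to 106 CPM. Neutrophil markers summed to 4.09 to 6.08 CPM in null fat and to 11.6 to 32.4 CPM in hHKDC1 OE fat, whereas the 4 monocyte markers overlapped, at 47.2 to 118 and 91.7 to 152 CPM. Each exact permutation test of these sums gave p = 0.1, the smallest that 3 against 3 libraries allow, except monocytes at 0.3. The 10 hepatocyte markers summed to 2655, 2678 and 7705 CPM in null fat, against 2137, 765 and 1175 CPM with the hHKDC1 vector, without overlap (exact permutation p = 0.1). The 5 skeletal muscle markers overlapped, at 16445, 20026 and 477 CPM in null fat, against 14577, 992 and 2253 CPM (exact permutation p = 0.4). The 2 keratinocyte markers overlapped too, at 96.4, 5.08 and 40.7 CPM in null fat, against 0, 7.14 and 0 CPM (exact permutation p = 0.2). The part of these cell types in the values of Tlr1, Tlr9 and the other genes was not tested.

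**Figure D2:**
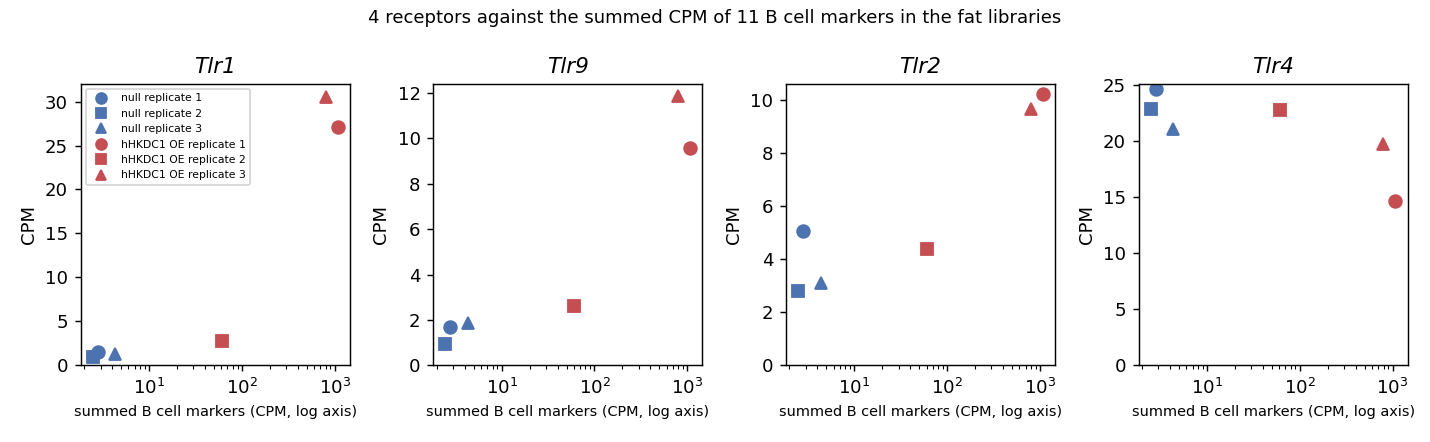
CPM of Tlr1, Tlr9, Tlr2 and Tlr4 in each fat library against the summed CPM of 11 B cell markers on a log axis, with null fat in blue and hHKDC1 OE fat in red. Both hHKDC1 OE libraries with B cell sums of 798 and 1076 CPM have the highest Tlr1, Tlr9 and Tlr2, and the hHKDC1 OE library at 60.8 CPM lies between them and null fat for Tlr1 and Tlr9, whereas Tlr4 ranges from 14.6 to 24.6 CPM and is lowest in the library of highest B cell sum.

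The make-up of the receptors can be read per gene length from the deposited FPKM, which scale counts to gene length and to a library total adjusted by size factors over all 12 libraries. Against plain scaling by the counted total, they are multiplied by 1.21 to 1.48 in the liver libraries and by 0.657 to 0.798 in the fat libraries, the same for all genes of a library, so shares and ratios within a library are not touched. Tlr1 was 2.38% to 2.76% of the summed FPKM of the 9 receptors in null fat, whereas hHKDC1 OE replicates 1, 2 and 3 had 34.4%, 5.20% and 30.7%. In 2 of the 3 hHKDC1 OE fat libraries Tlr1 was thus the receptor of highest FPKM, where Tlr4 led in all 3 null libraries and in hHKDC1 OE replicate 2. Between the partners of Tlr2, the ratio of Tlr1 to Tlr6 by FPKM was 0.775 to 1.81 in null fat, against 11.8, 1.73 and 7.48 with the hHKDC1 vector, so that replicate 2 lay inside the null range. The 9 receptors together came to 9.04 to 12.7 FPKM in null fat and 11.8 to 20.7 FPKM in hHKDC1 OE fat. The endosomal receptors made up 41.6% to 46.8% and 32.5% to 43.9% of these sums.

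The rest of the pathway was read from 8 lists with 80 genes, of which 70 were tested in fat. Of these 49 had a log2 fold change above 0, as had 7556 of all 16380 genes. Of the 70, edgeR called 0 in either direction, with 26 higher and 3 lower at an unadjusted p under 0.05 (11.3% and 6.39% of all genes). DESeq2 called 18 higher (6.51% of all genes with an adjusted p) and limma 0. EdgeR called 11 higher with no filter (2.42% of all genes) and 13 with all 12 libraries in 1 fit (4.51%). The median log2 fold change was 0.47, and with library size alone that of all genes moved from -0.05 to 0.11. Without hHKDC1 OE fat replicate 2, edgeR called 26 of 75 higher and 4 lower (11.4% and 7.53% of all genes), and under the replicate block 3 were called higher (0.971% of all genes), namely Cd180, Ly86 and Ctss.

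Among the chaperones, co-receptors and transport genes, 10 of 14 were higher in value (11 with library size alone). Cd180, a relative of Tlr4 that is known from B cells, had 1.82, 0.372 and 2.03 CPM in null fat and 18.9, 2.79 and 21.7 CPM in hHKDC1 OE fat (log2 fold change 3.35, SE 0.89). Replicate 2 was again the lowest of the hHKDC1 OE libraries. Lbp, the carrier of lipopolysaccharide to Cd14, was at the other end of the list (log2 fold change -0.90, SE 0.70), and the edgeR adjusted p values were 0.144 for Cd180 and 0.513 for Lbp. Lbp had 268, 196 and 303 CPM in null fat, against 53.3, 309 and 49.4 CPM with the hHKDC1 vector, and without hHKDC1 OE fat replicate 2 its log2 fold change was -2.33 (edgeR adjusted p = 0.00153). Unc93b1, which brings the nucleic acid receptors to endosomes, had 50.9, 43.3 and 67.4 CPM in null fat and 166, 84.4 and 152 CPM in hHKDC1 OE fat, with no overlap (log2 fold change 1.32, SE 0.29, edgeR adjusted p = 0.133).

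Of the adaptors other than Myd88, Pik3ap1 had the highest log2 fold change (1.74, SE 0.47) and Tirap, the bridge from Tlr2 and Tlr4 to Myd88, the lowest (-0.70, SE 0.29), with edgeR adjusted p values of 0.146 and 0.279. The 18 kinases and ubiquitin ligases were divided, 8 higher and 10 lower (9 higher with library size alone), from Ikbke at 1.45 to Irak2 at -0.42 on the log2 scale, and their median was -0.11. All 8 NF-kB and Irf factors were higher in value, 6 of them at an unadjusted p under 0.05 (11.3% of all genes were higher at that p), from Rel at 2.06 (SE 0.45) to Rela at 0.29 (SE 0.14). Rel had 6.32, 4.34 and 5.08 CPM in null fat and 26.3, 9.39 and 30.2 CPM in hHKDC1 OE fat (edgeR adjusted p = 0.133).

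Inhibitors of the pathway were higher in value for 8 of 9, from Socs1 at 3.07 (SE 0.76) to Tollip at -0.36 (SE 0.16) on the log2 scale. Of the 17 cytokine and enzyme targets only 7 passed the low-count filter in fat, and 6 of these were higher in value. Il6 and Ifnb1 had 0 counts in each of the 12 libraries, where a count of 0 in any library taken alone allows up to 3. Ccl5 (log2 fold change 4.86, SE 0.98, edgeR adjusted p = 0.133), a chemokine that T cells also make, and Nos2 (-0.21, SE 0.37) were the extremes of that list. Receptors of the interleukin family that also use Myd88 were higher for 2 of 6, from Il18r1 at 2.53 to Il1rap at -0.50. The mouse receptors Tlr11, Tlr12 and Tlr13 were all higher in value, from 1.30 for Tlr13 to 3.70 for Tlr12, which had 11.5, 0.342 and 7.81 CPM in hHKDC1 OE fat and 0.304 to 0.802 CPM in null fat.

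In liver, where the vector's promoter is active, no member passed the test. The low-count filter kept 7 of the 10 genes and removed Tlr6, Tlr8 and Tlr9. In liver 1 CPM was worth 15.4 to 18.8 counts. By edgeR 0 of the 7 were called, as were 0% of the 13351 genes tested, and 1 was lower and 0 higher at an unadjusted p under 0.05 (3.05% and 3.89% of all genes), while DESeq2 and limma each called 0 of the members. The median log2 fold change of the 7 was 0.19, against 0.01 over all genes.

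Tlr4 was the gene at an unadjusted p under 0.05. It had 1.30, 1.04 and 0.806 CPM in null liver and 0.246, 0.426 and 0.533 CPM in hHKDC1 OE liver, which are 21, 16 and 13 counts against 4, 8 and 10. The groups did not overlap, which held for 6.18% of all genes in that direction. The log2 fold change was -1.36 (SE 0.55, edgeR adjusted p = 0.662). The 5 endothelial markers summed to 74.9, 88.9 and 54.6 CPM in null liver and to 41.7, 60.1 and 34.3 CPM in hHKDC1 OE liver, with 5 of 5 lower by their means, while macrophage markers summed to 109 to 138 and 138 to 242 CPM, with 6 of 7 higher. The 5 Kupffer cell markers summed to 81.1, 93.7 and 149.7 CPM in null liver, against 320.3, 150.4 and 148.2 CPM with the hHKDC1 vector. All 5 were higher at an unadjusted p under 0.05 by edgeR (3.89% of all genes), but 0 were called (smallest edgeR adjusted p = 0.606). With TMM the groups overlapped for the Kupffer cell and the macrophage sums (exact permutation p = 0.2 for each), and with library size alone they did not (p = 0.1 for each). The 10 hepatocyte markers summed to 111452 to 116214 CPM in null liver and to 71281 to 95563 CPM in hHKDC1 OE liver, without overlap (exact permutation p = 0.1, the smallest possible). Yet 4 of 10 were higher by their means, and 3 were lower without overlap (6.18% of all genes). The part of these cell types in the value of Tlr4 and the other members was not tested.

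Tlr3 had 4.76, 3.45 and 4.15 CPM in null liver and 4.98, 5.37 and 6.51 CPM in hHKDC1 OE liver, the reverse order of its values in fat. The groups did not overlap, as for 6.31% of all genes (log2 fold change 0.45, SE 0.25, edgeR adjusted p = 0.788). Myd88 had 15.0, 15.8 and 17.8 CPM in null liver and 15.8, 12.2 and 14.3 CPM in hHKDC1 OE liver, with overlap (log2 fold change -0.20, SE 0.17, edgeR adjusted p = 0.866).

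Tlr1 had 4, 4 and 21 counts in null liver and 18, 12 and 12 in hHKDC1 OE liver, so null replicate 3 alone exceeded all hHKDC1 OE libraries (log2 fold change 0.38, SE 0.73). Without that library the log2 fold change was 1.61 with an edgeR adjusted p of 0.68. B cell markers in liver summed to 0.988 to 3.84 CPM in null and to 1.92 to 3.44 CPM in hHKDC1 OE mice, far under the sums of hHKDC1 OE fat. Tlr2 ranged from 0.521 to 2.23 CPM in null liver and from 1.06 to 2.19 CPM in hHKDC1 OE liver, Tlr5 from 5.80 to 8.12 and from 4.49 to 10.7 CPM, and Tlr7 from 1.17 to 1.98 and from 1.33 to 1.48 CPM, all with overlap.

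Of the genes below the filter, Tlr9 had 0, 6 and 1 counts in null liver and 17, 11 and 2 in hHKDC1 OE liver, and these overlap. Its exact two-sided permutation test gave p = 0.2, where the smallest possible is 0.1. Tlr6 had 1 to 12 counts and Tlr8 1 to 12 counts in the liver libraries, and the groups overlapped in both (exact permutation p = 0.9 and 1).

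**Figure D3:**
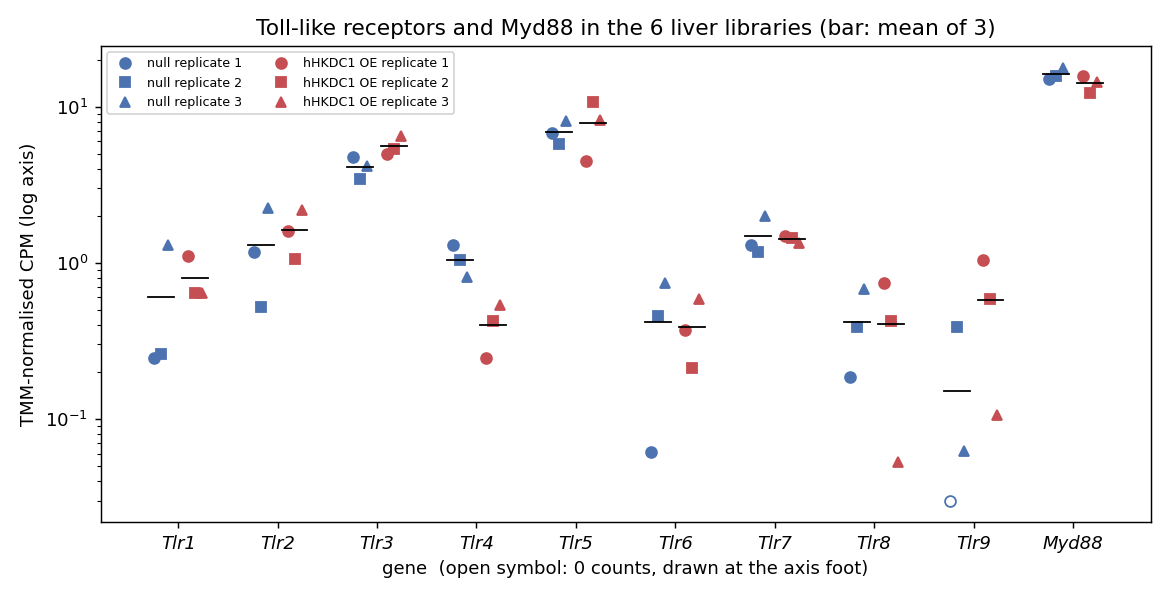
CPM of the 10 genes in the liver libraries on a log axis, with null liver in blue, hHKDC1 OE liver in red and a bar at each mean of 3. Tlr4 is the one gene with all red symbols below all blue ones and Tlr3 the one with all above, while Tlr6, Tlr8 and Tlr9 lie at or under 1.05 CPM in every library.

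The pathway lists in liver had 61 of 80 genes tested, with a median log2 fold change of 0.12. Of all 13351 genes 6821 had a log2 fold change above 0, and of the 61 pathway genes 41 did. EdgeR called 0 of them, with 4 higher and 0 lower at an unadjusted p under 0.05 (3.89% and 3.05% of all genes), DESeq2 called 1 higher (Cxcl1, against 0.344% of all genes with an adjusted p) and limma 0. With no filter on low counts edgeR called Cxcl1, Irak3 and Tlr12 higher and Cd36 lower (0.726% and 0.593% of all genes), and without hHKDC1 OE liver replicate 2 it called Cxcl1 (0.567% of all genes called higher). Cxcl1, a chemokine that attracts neutrophils, had 3.77, 4.95 and 4.84 CPM in null liver and 11.9, 7.45 and 9.60 CPM in hHKDC1 OE liver, with no overlap (log2 fold change 1.09, SE 0.24, edgeR adjusted p = 0.394). The targets ran from Il1b, the cytokine interleukin 1 beta (1.72, SE 0.57, edgeR adjusted p = 0.595), to Ccl5 (-1.18, SE 0.69). Irak3, a kinase-dead inhibitor of the Myd88 complex, had the highest log2 fold change of the inhibitors (1.92, SE 0.67, edgeR adjusted p = 0.606), and Tnfaip3 the lowest (-0.45, SE 0.38). Irak3 had 0.618, 0.782 and 0.744 CPM in null liver, against 5.60, 0.851 and 1.76 CPM with the hHKDC1 vector, and without hHKDC1 OE liver replicate 1 its log2 fold change was 0.86. The other lists ran from Cd14 at 0.88 to Cd36 at -0.68 among the chaperones and co-receptors, from Irf5 at 0.41 to Relb at -0.72 among the transcription factors, from Ripk1 at 0.25 to Map3k7 at -0.17 among the kinases, from Tirap at 0.18 to Pik3ap1 at -0.34 among the adaptors, and from Tlr12 at 0.78 to Tlr13 at -0.16 among the other mouse receptors. Il1rap and Il1r1 stood at -0.22 and -0.36.

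An interaction term over the 12 libraries asked whether the vector's effect differed between the tissues, and all 10 genes entered it. EdgeR called 0 of them and 0% of the 17070 genes tested. At an unadjusted p under 0.05 the effect was higher in fat for 3 genes, against 9% of all genes tested, and lower for 1, against 3.67%. Tlr1 had the largest difference of the 10 on the log2 scale (3.64, SE 1.17, edgeR adjusted p = 0.222). Myd88, higher in fat and lower in liver by its fold changes, differed by 0.93 (SE 0.29, edgeR adjusted p = 0.210), Tlr4 by 1.18 (SE 0.43, edgeR adjusted p = 0.275) and Tlr3 by -0.69 (SE 0.29, edgeR adjusted p = 0.359).

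DESeq2 called Tlr1 in this comparison (adjusted p = 0.0472), where it called 2.36% of all genes with an adjusted p higher, and limma called 0 of the 10. Without hHKDC1 OE fat replicate 2, edgeR called Tlr1 (3.94, adjusted p = 0.0126) and Myd88 (0.90, adjusted p = 0.0471), with 3.92% of all genes called higher. The interaction of Tlr9 was 0.58 with an SE of 1.43, at 0 to 17 counts in liver. None of the 71 pathway genes tested was called by edgeR, with 18 higher and 2 lower at an unadjusted p under 0.05 (9% and 3.67% of all genes), and DESeq2 called 5 higher (2.36% of all genes with an adjusted p). With no filter edgeR called 5 higher (1.36% of all genes), and without hHKDC1 OE fat replicate 2 it called 12 of 75 higher and 3 lower, namely Lbp, Irak2 and Ctsl (3.92% and 2.86% of all genes). The extremes of the lists were Ctss (2.66) and Lbp (-0.92), Pik3ap1 (2.16) and Sarm1 (-1.31), Ikbke (1.66) and Irak2 (-0.58), Relb (2.72) and Rela (0.20), and Socs1 (1.71) and Irak3 (-1.80) on the log2 scale. For the targets they were Ccl5 (6.13) and Ccl4 (-0.86), for the interleukin receptors Il18rap (4.90) and Il1rl2 (-0.33), and for the other mouse receptors Tlr12 (2.99) and Tlr13 (1.54).

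**Figure D4:**
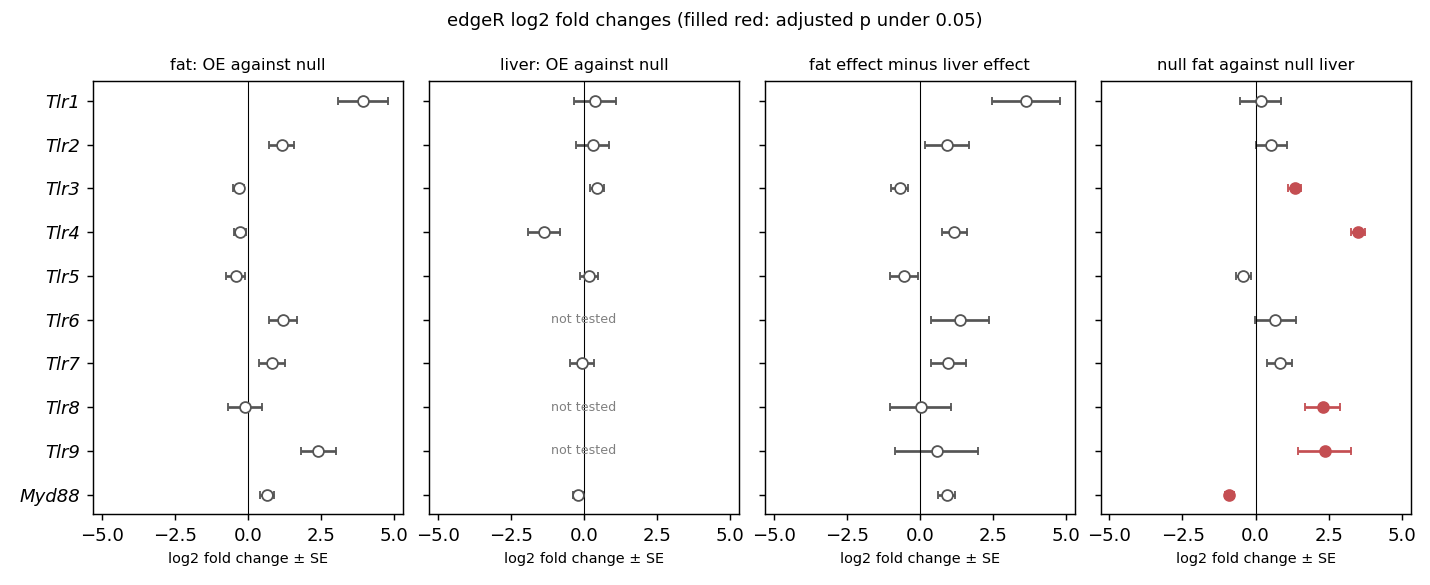
Log2 fold changes with their SE for the 10 genes in the 4 comparisons, where filled red points are called by edgeR (adjusted p under 0.05). Filled points appear in the comparison of the null tissues alone: Tlr3, Tlr4, Tlr8 and Tlr9 to the right of 0 and, with TMM normalisation, Myd88 to the left. The call of Tlr9, at an adjusted p of 0.049, is lost under the replicate block, with no filter, with limma and in 5 of the 6 fits with 1 library left out.

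The null tissues were compared to show where the receptors are found without the vector's gene. By edgeR 5 of the 10 genes were called, 4 higher in fat and 1 lower, where 64.3% of the 15259 genes tested were called, 33.8% higher and 30.5% lower. The share of members called is thus no larger than that of all genes. The levels below are FPKM, whose size factors raise liver and lower fat as given above.

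Tlr4 differed the most. It had 0.327, 0.254 and 0.194 FPKM in null liver and 3.28, 2.98 and 2.87 FPKM in null fat, a log2 fold change of 3.50 (SE 0.25, edgeR adjusted p = 1.53e-05). Endothelial markers, a cell type known to carry Tlr4, were higher in fat for 5 of 5, with sums of 856 to 971 CPM in null fat and 54.6 to 88.9 CPM in null liver, each normalised within its tissue. Of the macrophage markers 4 of 7 were called higher in fat (33.8% of all genes), and of the Kupffer cell markers 4 of 5 were called lower (30.5% of all genes). The part of these cells in the difference was not tested.

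Tlr3 had 1.28, 0.898 and 1.07 FPKM in null liver and 3.15, 2.71 and 2.65 FPKM in null fat (log2 fold change 1.34, SE 0.21, edgeR adjusted p = 0.000821). Tlr8 had 0.0724, 0.148 and 0.254 FPKM in null liver and 1.12, 0.389 and 0.960 FPKM in null fat (log2 fold change 2.29, SE 0.61, edgeR adjusted p = 0.011). Tlr9 was listed at 0, 0.152 and 0.0239 FPKM in null liver and at 0.362, 0.194 and 0.408 FPKM in null fat, and its adjusted p of 0.049 by edgeR was the closest to the threshold (log2 fold change 2.37, SE 0.91). That call was lost under the replicate block (edgeR adjusted p = 0.0921), with no filter (0.0527), with limma (0.058) and in 5 of the 6 fits with 1 library left out, whose adjusted p ran from 0.0141 to 0.159. Over these 6 fits the log2 fold change of Tlr9 ran from 1.79 to 4.45. In these 4 genes all fat libraries were above all liver libraries, which held for 39.3% of all genes tested, and the reverse, seen for Myd88, for 32.3%.

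Myd88 was the only member called lower in fat, at 8.16, 8.32 and 9.24 FPKM in null liver and 5.15, 4.05 and 5.19 FPKM in null fat (log2 fold change -0.89, SE 0.16, edgeR adjusted p = 0.00175), but that difference depends on the scaling. With library size alone the median log2 fold change of all genes moved from 0.09 to 0.98 and the share of higher calls from 52.6% to 79.8%, and Myd88 then stood at -0.00 (edgeR adjusted p = 0.99). As CPM per kilobase, with TMM set within each tissue, its mean was 6.29 in null liver and 6.47 in null fat. With library size alone Tlr2 and Tlr7 were also called higher, as were 59.1% of all genes. For Tlr1, Tlr2, Tlr5, Tlr6 and Tlr7 the null tissues overlapped, with log2 fold changes from -0.42 for Tlr5 (0.48 with library size alone) to 0.82 for Tlr7.

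Of the pathway lists, 66 of 80 genes were tested between the null tissues, and 18 were called higher in fat and 19 lower (33.8% and 30.5% of all genes), or 31 and 10 with library size alone (59.1% and 15% of all genes). The counts of single lists that follow are to be read against the same 33.8% and 30.5%. Each gene named here had an edgeR adjusted p under 0.05 with TMM. All 3 of the adaptors tested were lower in fat with TMM: Pik3ap1 (log2 fold change -3.47, SE 0.36), Ticam1, the adaptor of Tlr3 (-1.26, SE 0.20), and Tirap (-0.83, SE 0.28), which with library size alone stood at 0.048. Of the chaperones and co-receptors 4 of 14 were called in each direction. Cd36, a fatty acid carrier and co-receptor of Tlr2 with Tlr6, was higher in fat (5.21, SE 0.38), and Hsp90b1, the chaperone that folds most of the receptors (-1.97, SE 0.16), the endosomal transporter Slc15a4 (-1.57, SE 0.19) and the protease Ctsl (-1.01, SE 0.21) were lower.

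Of the kinases and ubiquitin ligases 5 were called higher in fat and 4 lower. Irak2 (1.23, SE 0.14) and Tab3 (1.29, SE 0.16) were higher, whereas Chuk, a kinase that acts on inhibitors of NF-kB (-2.41, SE 0.14), and Ikbkg, its regulatory partner (-0.60, SE 0.11, but 0.29 with library size alone), were lower. Among the transcription factors Relb (2.48, SE 0.32) and Nfkb1 (0.62, SE 0.15) were higher and Irf3 (-1.36, SE 0.20) and Rel (-1.13, SE 0.28) lower. The inhibitors Irak3 (3.84, SE 0.27) and Tnfaip3 (2.18, SE 0.27) were higher in fat and Sigirr lower (-1.88, SE 0.19).

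Nos2, the inducible nitric oxide synthase, had a mean of 0.0133 FPKM in null liver and 1.96 FPKM in null fat, while Cxcl1 (-3.20, SE 0.37) and Il1a (-2.62, SE 0.56) were lower in fat. Of the interleukin receptors, Il1rl1 had a mean of 0.0251 FPKM in null liver and 0.805 FPKM in null fat and Il1rl2 0.0533 and 1.59 FPKM, whereas Il1rap, the shared subunit of several of them (-4.93, SE 0.28), and Il1r1, the receptor for interleukin 1 (-2.16, SE 0.24), were lower in fat. Tlr12 was lower in fat as well (-5.19, SE 0.43). With library size alone Ticam1, Ctsl, Irf3 and Rel kept a negative log2 fold change and were not called.

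Ordered by mean FPKM within each group, Myd88 led in all 4 groups. In fat it stood at 4.80 ± 0.65 with the null and 7.20 ± 1.49 with the hHKDC1 vector, and in liver at 8.58 ± 0.58 and 7.33 ± 1.05 FPKM (SD, n = 3 in each). In null fat Tlr4 (3.04 ± 0.21) and Tlr3 (2.83 ± 0.27) came next with overlapping ranges, then Tlr5 (1.53 ± 0.37), Tlr7, Tlr2 and Tlr8, from 0.914 to 0.822, and last Tlr9, Tlr1 and Tlr6 at 0.321, 0.289 and 0.255. From Tlr5 to Tlr6 each gene overlapped the next. In hHKDC1 OE fat each gene overlapped the next in order. There Tlr1 was second at 4.20 ± 3.13, with an SD close to its mean, and Tlr9 sixth at 1.62 ± 0.94.

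In null liver the order after Myd88 was Tlr5 (1.96 ± 0.32), Tlr3 (1.08 ± 0.19), Tlr2 (0.590 ± 0.38) and Tlr7 (0.495 ± 0.14), of which Tlr5 was clear of Tlr3 and Tlr7 of Tlr4, and the last 5 genes overlapped in succession. Tlr4, second in null fat, was sixth there at 0.258 ± 0.067, and it was last in hHKDC1 OE liver at 0.0962 ± 0.034. Tlr5 was the receptor of highest FPKM in 5 of the 6 liver libraries, and Tlr3 in hHKDC1 OE liver replicate 1.

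**Figure D5:**
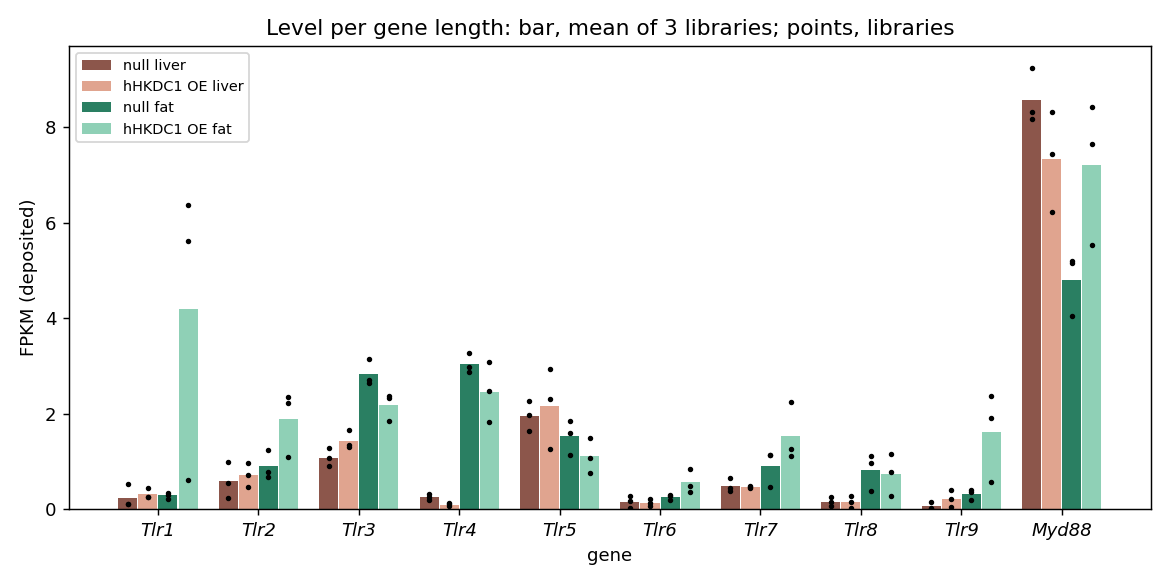
Deposited FPKM of the 10 genes, with bars at the mean of 3 libraries from 0, points at each library, liver in brown and fat in green, and the lighter shade for hHKDC1 OE. The size factors in the FPKM raise the liver values and lower the fat values. Myd88 is highest in each group, Tlr4 reaches 3.04 FPKM in null fat against 0.258 in null liver, and the 3 points of Tlr1 in hHKDC1 OE fat lie far apart at 5.63, 0.615 and 6.36 FPKM.

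The genes most like each member over the 12 libraries were found among 17069 genes by the root mean square difference of their centred log2 CPM, a description with no test. The nearest to Tlr1 were Galnt6 (0.37 on the log2 scale), Cd52 (0.41) and Cd53 (0.42), the latter both surface proteins of leukocytes, where Tlr1 itself had an SD of 1.84 over the libraries. Tlr9 had Rgs10 (0.64), Was (0.65), a regulator of actin in blood cells, and Siglec1 (0.67). For Tlr4 they were Ecm2 (0.22), Nes (0.27) and Cd93 (0.29), the last a surface protein of endothelium, at an SD of 2.14 for Tlr4. Tlr2 was nearest to Uap1l1 (0.37), Wdr86 and Cnp, Tlr3 to Smurf1 (0.16), Sipa1l2 and Fam20b, and Tlr5 to Zfp109 (0.24), Plpp3 and Serhl. Tlr6 was nearest to Amz1 (0.36), Cdca4 and Tifab, Tlr7 to Actb (0.30), Wdr1 and Oasl2, Tlr8 to Lca5 (0.48), Ptpro and Ptpn13, and Myd88 to Rpl15 (0.12), Isg20l2 and Hspbp1. No member was among the 3 nearest genes of another.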

How the data were processed

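RNA of 12 libraries was sequenced without strand information. The authors mapped reads with STAR (2.5 in their processing notes) and counted them with HTSeq 0.6.1, and the deposited counts are whole numbers without normalization. The methods name a human reference, but the identifiers are mouse Ensembl genes. The deposited FPKM were made by the authors from these counts, and over 11127 genes with at least 10 counts in every library they equal counts per length and library total times 1 factor per library, in proportion to DESeq2 size factors over the 12 libraries. The authors' own comparison tables, with log2 fold changes and p-values, were not used. Totals were 15496019 to 19954971 counts per library, and 0 counts allow up to 3. The sources used here do not say whether a replicate number marks the same mouse in both tissues, and p-values measure the spread between these libraries.

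Each tissue was fitted alone with edgeR 4.0.16 (glmQLFit, glmQLFTest, TMM, filterByExpr) in R 4.3.3, with Benjamini-Hochberg adjustment over all genes tested. A gene was called at an adjusted p under 0.05. The interaction used 12 libraries. Alternatives were DESeq2 1.42.0, DESeq2 size factors, library size alone, no filter, limma 3.58.1 on log2(FPKM + 1) at a mean FPKM of at least 0.1, the replicate block, 12 libraries in 1 fit and each library left out. With limma, the added 1 shrinks the log2 fold changes of genes at low FPKM. Fits were tested on simulated data. Marker sums were compared by two-sided exact permutation tests.

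All 10 members were named, and from each pathway list up to 4 called genes by smallest adjusted p, otherwise the genes of highest and lowest log2 fold change. Others were named after their values were seen. The members and lists were chosen with earlier results of these data known. Lists left out Ccl21a and Ccl19, which have more than 1 row each.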

Additional observations from a re-analysis of the deposited data

How the results depend on the processing

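Calls across the treatment comparisons depended on the setting. In fat, where edgeR called 0 genes, the counts of all genes called in either direction and of members called higher were 1452 and 2 with DESeq2, 803 and 2 with no filter on low counts, 876 and 1 with the 12 libraries in 1 fit, 1 and 0 with limma, and 168 and 0 with the replicate block. Leaving out 1 library gave 0 to 3251 genes and 0 to 4 members, the highest of both without hHKDC1 OE fat replicate 2, and without null fat replicate 3 it gave 2 genes. Tlr8 in fat, at -0.54 to 0.27 over the fits with 1 library left out, turned to 0.032 with library size alone, to 0.15 without null fat replicate 1, to 0.27 without hHKDC1 OE fat replicate 1 and to 0.46 with replicate 2 as the only hHKDC1 OE library. In liver the calls of all genes were 93 with DESeq2, 2 with library size alone, 327 with no filter, 3 with limma, 17 with the replicate block and 0 to 146 with 1 library left out, with 0 members called in each setting run. Over the fits with 1 library left out, Tlr2 ranged from -0.069, without null liver replicate 2, to 0.92, Tlr7 from -0.21 to 0.19, without null liver replicate 3, and Tlr5 turned to -0.11 without hHKDC1 OE liver replicate 2. For the interaction, 499 genes and 1 member were called with DESeq2, 479 and 1 with no filter, 6 genes with the replicate block, and 0 to 1211 genes and 0 to 2 members with 1 library left out, the highest without hHKDC1 OE fat replicate 2. Its value for Tlr8 turned to -0.069 with DESeq2, -0.064 with DESeq2 size factors and -0.063 with limma, and ranged from -0.59 to 0.76 with 1 library left out. Tlr4 turned to -0.042 with limma, and Tlr9 ranged from -1.53, without null liver replicate 2, to 1.30. Between the null tissues, library size alone left 0 members called lower and turned Tlr5 to 0.48, Tlr1 ranged from -0.20 to 1.39 with 1 library left out, and leaving out 1 library gave 3 to 4 members higher, among them Tlr7 without null fat replicate 2 (edgeR adjusted p = 0.0443). The call of Tlr9 there was lost with no filter (edgeR adjusted p = 0.0527), with limma (0.058) and with the replicate block (0.0921), and its adjusted p ran from 0.0141 to 0.159 with 1 library left out. Same-numbered libraries of the groups compared had correlations of -0.113 to 0.213 between their deviations from the group means, and the replicate number was not taken as a pairing. For null fat against null liver these were 0.0245 to 0.213, against -0.175 to 0.0351 for libraries of different numbers. Between null and hHKDC1 OE liver, from different mice, they were 0.0439 to 0.189. Whether a number marks a shared mouse cannot be told from these values. The replicate block changed no other call of a member. The causes of these changes were not tested. With 4 to 26 counts, Tlr4 and Tlr1 in liver and Tlr1 in null fat carry large counting errors. The same holds for Tlr9 (15 to 35 counts) and Tlr6 (16 to 27) in null fat and for Tlr2 (8 to 41) and Tlr7 (18 to 32) in liver.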
